A study of Mus musculus with 34 samples.

Results

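Livers that received a guide against Irs1 were compared directly with livers that received a guide against Srebf1, without going through control livers. The comparison rested on 10 of the 34 liver libraries of the study, 5 labelled Irs1 KO and 5 labelled Srebf1 KO. It covered the 16388 genes with at least 1 FPKM (a level of fragments corrected for transcript length and depth) in 5 or more of the 10 libraries. All mice were C57BL/6 and homozygous for both TetO-Cas9, a Cas9 gene under a tetracycline-responsive promoter, and Rosa-rtTA, the transactivator that drives it. Each had been given 1 guide RNA by adeno-associated virus (AAV) and had been on Western diet (WD) for 3 months. Both groups shared the Cas9 background, the virus and the diet, and they differed in the guide. The 6 control livers, set beside both groups by their levels and not part of the direct comparison, carried guides against GFP or LacZ on the same background and diet. Age, sex and the time of Cas9 induction are not given in the labels. RNA came from whole liver, so edited and unedited cells, and all cell types, were measured together. The labels number the livers but do not say how they were sampled, so p-values measure the spread between these samples.

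IRS1 is an adaptor that carries the signal of the activated insulin receptor to PI3 kinase and AKT. Srebf1 encodes SREBP-1, a membrane-bound transcription factor whose liver form is induced and processed under insulin and drives genes of fatty acid synthesis. Its relative SREBP-2, encoded by Srebf2, is processed when membranes are poor in sterol and drives the cholesterol synthesis enzymes. In the fatty liver of a Western diet, both proteins thus stand upstream of lipid synthesis, one in the signal and one in the transcriptional output.

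The targeted genes were read first. Srebf1 stood at 2435, 1982, 1373, 1560.5 and 1383 FPKM in the Irs1 KO livers and at 516, 499, 527 and 632 FPKM in Srebf1 KO replicates 2 to 5. The library labelled Srebf1 KO replicate 1 held 1908 FPKM, inside both the Irs1 KO range and the control range of 1095 to 2177 FPKM. Its Srebf1 RNA went against its label, so tests were run with it (10 livers) and without it (9 livers). With 10 livers Srebf1 missed the threshold (log2 difference 1.29 ± 0.33 SE, adjusted p = 0.06, limma), and with 9 it passed (1.65 ± 0.17, adjusted p = 0.00056). The library was left out for its Srebf1 level, so the 9-liver result for Srebf1 is not an independent test of that gene. Irs1 RNA was at 25.4 to 35.8 FPKM in the Irs1 KO livers, 26.2 to 38.3 FPKM in the Srebf1 KO livers and 20.2 to 27.6 FPKM in the controls. A guide changes DNA and need not lower the RNA level, so the Irs1 value gave no check of the Irs1 KO labels.

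Differences throughout are Irs1 KO minus Srebf1 KO on the scale of log2(FPKM + 1), tested with limma and adjusted over all 16388 genes. That scale understates fold changes of low genes. With 10 livers 503 genes (3.07%) passed an adjusted p of 0.05, of which 151 (0.921%) were higher and 352 (2.15%) lower in Irs1 KO. At least 2-fold differences made up 58 of the higher and 150 of the lower genes. Without the library labelled Srebf1 KO replicate 1, 684 genes (4.17%) passed, 241 (1.47%) higher and 443 (2.70%) lower. Both sets shared 456 genes, all in the same direction, while 47 passed only with 10 livers and 228 only with 9. Leaving out other single livers lowered the 10-liver count to between 223 (without Srebf1 KO replicate 5) and 391 (without Irs1 KO replicate 4). The count was 242, 268, 295, 319, 319 and 332 without Irs1 KO replicate 2, Srebf1 KO replicate 2, Srebf1 KO replicate 3, Irs1 KO replicate 1, Srebf1 KO replicate 4 and Irs1 KO replicate 3. The 9-liver count went down to 430 and 437 without Srebf1 KO replicates 3 and 4. The share of calls that were higher in Irs1 KO depended on scaling: it was 30.0% as deposited, 56.3% after median scaling and 42.4% after quantile normalization with 10 livers, and 35.2%, 60.2% and 44.5% with 9. Median scaling moved the median difference over all genes from -0.06 to 0.03 with 10 livers and from -0.07 to 0.04 with 9.

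Depth was similar, from 2140000 to 2840000 reads per library as implied by the spacing of low FPKM values. Of the genes called with 9 livers, the control mean lay nearer to Srebf1 KO than to Irs1 KO for 368 of the 443 lower and 201 of the 241 higher genes. For 199 of the 443 and 118 of the 241 it lay beyond the Srebf1 KO mean, so both groups were on the same side of the controls. Nearer to the controls thus does not mean at control level, and the share over all genes was not taken.

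The library labelled Srebf1 KO replicate 1 lay between the groups. Among the 684 genes called without it, its position between the group means (0 at the Irs1 KO mean, 1 at the mean of Srebf1 KO replicates 2 to 5) had a median of 0.47, and 52.2% of the genes lay nearer to the Irs1 KO mean. The same measure for each of the other 9 livers, over the genes called without that liver, had medians of 0.75 to 1.06, with 3.59% to 22.9% of genes nearer to the other group. The median position of this library differed between gene groups. It was -0.19 over the 9 called genes of amino acid catabolism, 0.26 over 16 male-biased genes and 0.29 over 16 cholesterol synthesis genes. It was 0.64 over 8 lipid droplet genes, 0.80 over 3 glycerolipid synthesis genes and 0.83 over 7 fatty acid oxidation genes. These medians rest on few genes, and single genes spread widely, from 0.12 (Pex11a) to 1.51 (Acadm) within fatty acid oxidation.

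**Figure D1:**
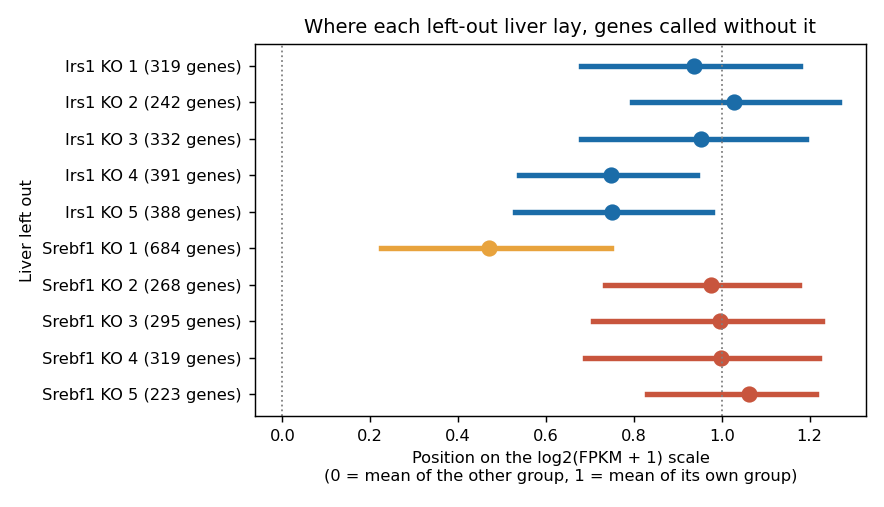
Position of each liver when left out, over the genes called without it (number in brackets), on a scale where 0 is the mean of the other group and 1 the mean of its own group; points are medians and bars run from the lower to the upper quartile. The library labelled Srebf1 KO replicate 1 has a median of 0.47, and the other 9 livers lie between 0.75 and 1.06.

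Cholesterol synthesis enzymes made up the gene list with the lowest median difference. All called members were lower in Irs1 KO: 12 of 21 tested with 10 livers and 16 of 21 with 9, beside 2.15% and 2.70% of all genes. The median difference over the 21 genes was -1.20 and -1.39, beside -0.06 and -0.07 over all genes. The counts ran from 10 to 16 and from 14 to 17 when single livers were left out, and were 12 with 10 livers under median scaling or quantile normalization.

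The bases upstream of the starts of 6 of these genes, all called lower in both fits, are shown from the RefSeq promoter table of build GRCm38.p6. That table held 16 of the 21 genes; Fdps, Fdft1 and Sqle are among those not in it. Each stretch is 160 bases long and ends just before the annotated start. Capitals mark the sterol regulatory element TCACNCCAC and the CCAAT box, CCAAT, the motif of NF-Y, a factor that acts together with SREBPs at sterol genes. Both motifs were searched on both strands, so ATTGG is CCAAT on the other strand.
Hmgcs1 (chr13:119690191-119690350, plus strand): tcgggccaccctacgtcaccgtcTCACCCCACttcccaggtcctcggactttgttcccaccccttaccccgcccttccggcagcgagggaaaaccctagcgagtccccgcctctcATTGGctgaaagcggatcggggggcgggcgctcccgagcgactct
Mvd (chr8:122443423-122443582, minus strand): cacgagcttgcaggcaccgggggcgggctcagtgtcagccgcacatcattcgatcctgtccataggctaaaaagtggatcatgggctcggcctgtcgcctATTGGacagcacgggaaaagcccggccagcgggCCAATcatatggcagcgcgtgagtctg
Idi1 (chr13:8885446-8885605, plus strand): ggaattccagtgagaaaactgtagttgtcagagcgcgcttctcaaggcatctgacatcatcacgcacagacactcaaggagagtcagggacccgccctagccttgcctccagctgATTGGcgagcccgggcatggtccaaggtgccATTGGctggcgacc
Cyp51 (chr5:4104698-4104857, minus strand): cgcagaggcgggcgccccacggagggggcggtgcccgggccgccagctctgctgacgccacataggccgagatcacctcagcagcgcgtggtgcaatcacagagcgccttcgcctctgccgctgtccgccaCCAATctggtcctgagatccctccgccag
Msmo1 (chr8:64733579-64733738, minus strand): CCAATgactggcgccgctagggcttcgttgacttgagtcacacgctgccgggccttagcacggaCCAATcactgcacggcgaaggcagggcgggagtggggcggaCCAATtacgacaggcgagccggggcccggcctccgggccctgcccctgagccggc
Nsdhl (chrX:72918361-72918520, plus strand): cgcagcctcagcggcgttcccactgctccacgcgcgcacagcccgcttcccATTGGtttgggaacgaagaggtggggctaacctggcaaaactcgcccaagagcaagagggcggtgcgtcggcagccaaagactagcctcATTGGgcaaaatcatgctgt
A CCAAT box lay in the 250 bases before the start in 15 of the 16 genes (93.8%), beside 39.5% of the 11916 tested genes with a promoter in the table and 37.5% of all 27025 genes in it. The gene without one was Acat2, which was called lower with 9 livers. Ebp, Sc5d, Dhcr7 and Ggps1, which passed in neither fit, all had the box, so it did not separate called from uncalled enzymes. Msmo1 had 3 copies in the stretch shown, and Idi1, Nsdhl and Mvd had 2 each. The element TCACNCCAC was in 1 of the 16, Hmgcs1, from 137 to 129 bases before its start, beside 1.35% of the tested genes. The GC box GGGCGG was in 14 of the 16 (87.5%) and in 56.4% of the tested genes. Among genes called lower in Irs1 KO with 9 livers, 41.6% of 332 with a promoter had a CCAAT box, and among those called higher 44.3% of 183. These matches describe letters in a window and are not evidence of binding.

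Early in the pathway, Hmgcs1, the cytosolic synthase that makes HMG-CoA, stood at 171, 168, 170.0, 194 and 187 FPKM in the Irs1 KO livers. It was at 2080.0, 859, 1736 and 1732 FPKM in Srebf1 KO replicates 2 to 5 and at 403 FPKM in the library labelled Srebf1 KO replicate 1. The groups did not overlap with or without that library, and the difference was -2.71 ± 0.37 with 10 livers (adjusted p = 0.0044) and -3.09 ± 0.21 with 9 (adjusted p = 6.0e-05). Controls ranged from 308 to 577 FPKM, above every Irs1 KO liver and below Srebf1 KO replicates 2 to 5. Idi1, which isomerizes the isoprenoid building block, was at 2.92, 1.83, 1.91, 2.38 and 2.32 FPKM in Irs1 KO, at 42.8, 23.1, 26.7 and 30.5 FPKM in Srebf1 KO replicates 2 to 5 and at 6.01 FPKM in the library labelled replicate 1. All Irs1 KO livers were below all Srebf1 KO livers (-2.82 ± 0.41, adjusted p = 0.0056; without that library -3.25 ± 0.24, adjusted p = 9.6e-05). Mvd, the decarboxylase before it in the pathway, differed by -1.88 and -2.16 (adjusted p = 0.0089 and 0.00056).

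Past squalene the pattern was the same in direction. Squalene epoxidase, Sqle, the first oxygen-dependent step toward sterols, was at 4.85, 4.56, 5.19, 5.23 and 7.39 FPKM in Irs1 KO and at 107, 57.5, 99.0 and 89.6 FPKM in Srebf1 KO replicates 2 to 5, with 13.1 FPKM in the library labelled replicate 1. Every Irs1 KO liver was below every Srebf1 KO liver (-3.24 ± 0.47, adjusted p = 0.0056). Without that library the fold on the log2(FPKM + 1) scale was 13.6 (-3.77 ± 0.22, adjusted p = 4.6e-05). Cyp51, lanosterol demethylase, was at 14.4 to 26.8 FPKM in Irs1 KO, at 115 to 254 FPKM in Srebf1 KO replicates 2 to 5 and at 38.2 FPKM in the library labelled replicate 1 (-2.75 ± 0.44, adjusted p = 0.0082; -3.21 ± 0.25, adjusted p = 9.6e-05). Msmo1, Nsdhl and Hsd17b7, which take part in removing further methyl groups after Cyp51, differed by -2.77, -2.38 and -1.39 with 9 livers (adjusted p = 9.6e-05, 0.00049 and 0.00077). These 3 also passed with 10 livers and in every leave-out. Fdft1, squalene synthase, passed with 10 livers (-1.77, adjusted p = 0.026), but among leave-outs only without Irs1 KO replicate 1, 4 or 5 or the library labelled Srebf1 KO replicate 1, and reached 0.0735 in the others; without that library it differed by -2.18 (adjusted p = 9.6e-05). Fdps, farnesyl diphosphate synthase, passed with 10 livers (adjusted p = 0.039) and among leave-outs only without the same library (-1.98, adjusted p = 0.00063), reaching 0.102 in the others. Mvk, Pmvk, Acat2 and Lss passed only with 9 livers (adjusted p = 0.0086, 0.012, 0.027 and 0.035). The last 2 of these lost the call in some leave-outs, Acat2 without Irs1 KO replicate 1 or 5 or Srebf1 KO replicate 2 or 3 (up to 0.0803) and Lss in all but those of Irs1 KO replicate 1 and Srebf1 KO replicate 3 (up to 0.0987). Sc5d, Ebp, Dhcr7 and Ggps1 passed in neither.

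**Figure D2:**
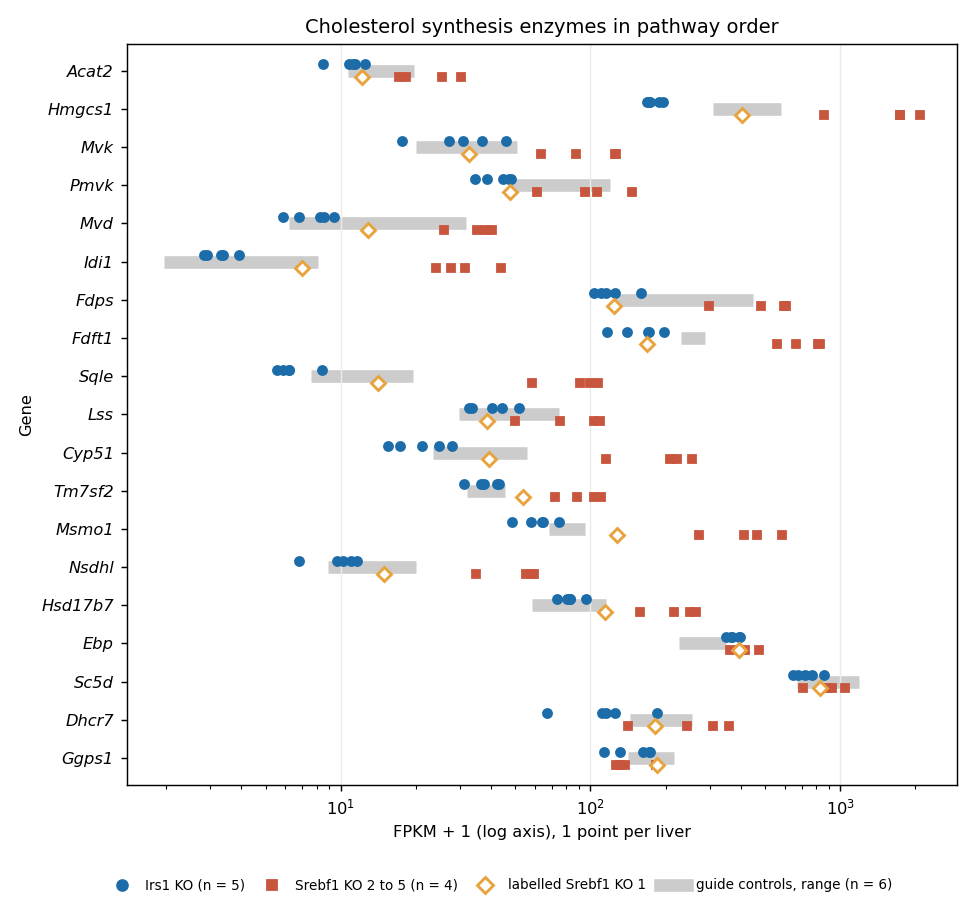
FPKM + 1 (log axis) of 19 tested cholesterol synthesis enzymes in pathway order, 1 point per liver, with the range of the 6 guide controls in grey. Irs1 KO livers lie to the left of Srebf1 KO replicates 2 to 5 for most enzymes, for example 4.56 to 7.39 against 57.5 to 107 FPKM for Sqle, and the library labelled Srebf1 KO replicate 1 lies close to the Irs1 KO or control range.

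The control livers place both groups. In Srebf1 KO replicates 2 to 5, 12 of the 21 enzymes were above every control liver in all 4 libraries, beside 1.30% of all genes, and none were below. In Irs1 KO, 3 of the 21 were below every control in all 5 livers, beside 5.91% of all genes. Srebf2 itself was at 31.4 to 45.8 FPKM in Irs1 KO and 64.8 to 71.3 FPKM in Srebf1 KO replicates 2 to 5, with 41.8 FPKM in the library labelled replicate 1. It missed the threshold with 10 livers (-0.66 ± 0.17, adjusted p = 0.057) and passed with 9 (-0.79 ± 0.14, adjusted p = 0.0087). Of the 16 genes of the SREBP pathway and sterol uptake, 1 was lower with 10 livers, and with 9 Srebf1 was higher and 2 were lower, beside 3.07% and 4.17% of all genes. The 9-liver call of Srebf1 was not independent of leaving out the library labelled replicate 1, which was done for its Srebf1 level. The 10-liver count was 0 without any 1 liver but Irs1 KO replicate 1 and the library labelled Srebf1 KO replicate 1, and under median scaling.

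Fatty acid synthesis genes, the class that SREBP-1 is best known for, had calls in both directions. With 10 livers 1 of 20 was higher and 2 lower in Irs1 KO, and with 9 livers 1 was higher and 3 lower, beside 3.07% and 4.17% of all genes in either direction. The median difference was -0.07 and -0.04. Across 10 livers the lower count was 1 without Irs1 KO replicate 1, 2, 3 or 5 or Srebf1 KO replicate 2, 3 or 4, under median scaling or quantile normalization and with all groups of the study in 1 fit. Fatty acid synthase, Fasn, was at 621, 428, 344, 382 and 268 FPKM in Irs1 KO and at 400.1, 396, 405 and 396 FPKM in Srebf1 KO replicates 2 to 5, with 338 FPKM in the library labelled replicate 1 and 436 to 1306 FPKM in controls. The 2 groups overlapped (difference 0.03 ± 0.18, adjusted p = 0.97; without that library -0.02 ± 0.19, adjusted p = 0.97). Stearoyl-CoA desaturase, Scd1, was at 31465 to 39612 FPKM in Irs1 KO and at 34140.0 to 42282 FPKM in Srebf1 KO, below the 48521 to 88565 FPKM of the controls in both. It did not pass either (-0.15, adjusted p = 0.50; -0.13, adjusted p = 0.57). Below every control in all of Srebf1 KO replicates 2 to 5 were 9 of the 20 genes, beside 263 of all 16388 genes. In Irs1 KO 6 of the 20 were below every control in all 5 livers, beside 5.91% of all genes. None were above every control in either group. The small median difference between the groups thus does not mean that the list was at control levels.

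Single members did differ. Acacb, the acetyl-CoA carboxylase of the mitochondrial surface whose product restrains fatty acid entry, was at 319, 270.3, 418, 357 and 334 FPKM in Irs1 KO. It was at 139, 123, 159 and 156 FPKM in Srebf1 KO replicates 2 to 5 and at 271 FPKM in the library labelled replicate 1, within the Irs1 KO range. It was higher in Irs1 KO (1.04 ± 0.19, adjusted p = 0.015; 1.23 ± 0.13, adjusted p = 0.00069). Hsd17b12, a reductase of very long chain elongation, was lower, at 94.4 to 141 FPKM against 207 to 267 FPKM in all 5 Srebf1 KO livers (-0.92 ± 0.12, adjusted p = 0.0038; -0.96 ± 0.13, adjusted p = 0.0022). Scd2, another stearoyl-CoA desaturase, passed only with 9 livers (-1.35 ± 0.23, adjusted p = 0.0078). Mlxipl, which encodes the carbohydrate-responsive factor ChREBP, was at 2759 to 3302 FPKM in Irs1 KO and at 2097 to 2305 FPKM in Srebf1 KO replicates 2 to 5, and it too passed only with 9 livers (0.46 ± 0.07, adjusted p = 0.0055).

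Of 20 lipid droplet genes, 7 were lower in Irs1 KO with 10 livers and 8 with 9, beside 2.15% and 2.70% of all genes, and the others did not pass, with median differences of -0.43 and -0.47. The counts moved with single livers: with 10, they were 4 without Irs1 KO replicate 2 or 3 or Srebf1 KO replicate 3 or 4 and 3 without Srebf1 KO replicate 5, and with 9, 5 without Irs1 KO replicate 2 or Srebf1 KO replicate 4 and 4 without Srebf1 KO replicate 3. Under median scaling 5 passed in each fit. Cidec, which fuses droplets into larger ones, was at 59.8, 56.8, 46.8, 112 and 33.4 FPKM in Irs1 KO. It was at 249.98 FPKM in the library labelled Srebf1 KO replicate 1 and at 315, 493, 406 and 391 FPKM in replicates 2 to 5. The groups were apart with that library included (-2.65 ± 0.28, adjusted p = 0.0014) and without it (-2.78 ± 0.28, adjusted p = 0.00056). Fitm2, an endoplasmic reticulum protein needed for droplets to form, was at 29.2 to 38.3 FPKM against 70.5 to 82.0 FPKM in all Srebf1 KO livers (-1.10 ± 0.11, adjusted p = 0.0014; -1.10 ± 0.12, adjusted p = 0.00083). Plin2, the main droplet coat protein of hepatocytes, was at 963 to 1355 FPKM in Irs1 KO, below the lowest Srebf1 KO liver at 1458 FPKM (-0.72 ± 0.12, adjusted p = 0.011; -0.82 ± 0.11, adjusted p = 0.0022). These 3 kept their calls in every leave-out of both fits. Irs1 KO livers were below every control in 7 of the 20 genes, beside 5.91% of all genes.

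Of 16 fatty acid uptake and binding genes, 3 were lower in Irs1 KO with 10 livers (Cd36, Vldlr and Fabp2), and with 9 livers 2 were lower (Cd36 and Vldlr) and 1 was higher (Slc27a5). Over all genes 2.15% and 2.70% were lower and 0.921% and 1.47% higher with 10 and 9 livers. With 10 livers 1 of the 16 was lower without Irs1 KO replicate 1, 2 or 3 or Srebf1 KO replicate 2, 3 or 4. With 9 livers 1 was lower without Srebf1 KO replicate 4, and Slc27a5 lost its call in every leave-out. Cd36, the fatty acid translocase, was at 630.0, 781, 967, 1406 and 1463 FPKM in Irs1 KO and at 2526, 2554, 2519, 2202 and 2637 FPKM in the 5 Srebf1 KO livers. In this gene the library labelled Srebf1 KO replicate 1 sat with the other Srebf1 KO livers, and both fits gave like values (-1.32 ± 0.20, adjusted p = 0.0073; -1.31 ± 0.22, adjusted p = 0.0087). Mogat1, a monoacylglycerol acyltransferase of triglyceride synthesis, was at 3.67, 9.18, 4.27, 13 and 20.6 FPKM in Irs1 KO and at 32.0 to 89.1 FPKM in all Srebf1 KO livers, the library labelled replicate 1 at 63.8 FPKM (-2.65 ± 0.41, adjusted p = 0.0074; -2.61 ± 0.46, adjusted p = 0.0098). Of 17 glycerolipid synthesis genes 3 passed in each fit, all lower, beside 2.15% and 2.70% of all genes. Pparg, the adipogenic nuclear receptor that is induced in fatty livers, was at 59.6 to 174 FPKM against 251 to 425 FPKM (-1.60, adjusted p = 0.0073; -1.64, adjusted p = 0.0072), and was chosen for naming after its values were seen. Among 30 apolipoprotein and lipoprotein genes, 1 was lower, Apoa4, and 2 were higher with 10 livers (Apom and Lrp1) and 3 with 9 (also Lipc). The higher count with 10 livers was 0 without Irs1 KO replicate 1, 2 or 3 or Srebf1 KO replicate 2, 4 or 5 and 1 without Irs1 KO replicate 4 or 5 or Srebf1 KO replicate 3, and with 9 it was 1 without Irs1 KO replicate 2. Apoa4, an apolipoprotein secreted by gut and fatty liver, was at 782 to 1734 FPKM against 2319 to 3861 FPKM (-1.28 ± 0.22, adjusted p = 0.01; -1.33 ± 0.24, adjusted p = 0.011).

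Fatty acid oxidation and PPAR-alpha target genes were also lower where they differed, 6 of 30 with 10 livers, while with 9 livers 6 were lower and 1 was higher, Ppargc1a. Over all genes 2.15% and 2.70% were lower and 0.921% and 1.47% higher with 10 and 9 livers. The list counts depended on the libraries and on scaling. With 10 livers the lower count was 2 without Irs1 KO replicate 2 or Srebf1 KO replicate 4 or 5 and 3 without Srebf1 KO replicate 3, and with 9 it was 2 without Srebf1 KO replicate 3 or 4 and 3 without Irs1 KO replicate 5 or Srebf1 KO replicate 5. Under median scaling 2 were lower with 10 livers and 3 with 9, and 1 was higher in each. Vnn1, a pantetheinase and strong PPAR-alpha target, was at 116, 124, 149, 204 and 216 FPKM in Irs1 KO and at 351 to 456 FPKM in all Srebf1 KO livers (-1.35 ± 0.17, adjusted p = 0.0028; -1.40 ± 0.18, adjusted p = 0.002). It kept its call in every leave-out of both fits.

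**Figure D3:**
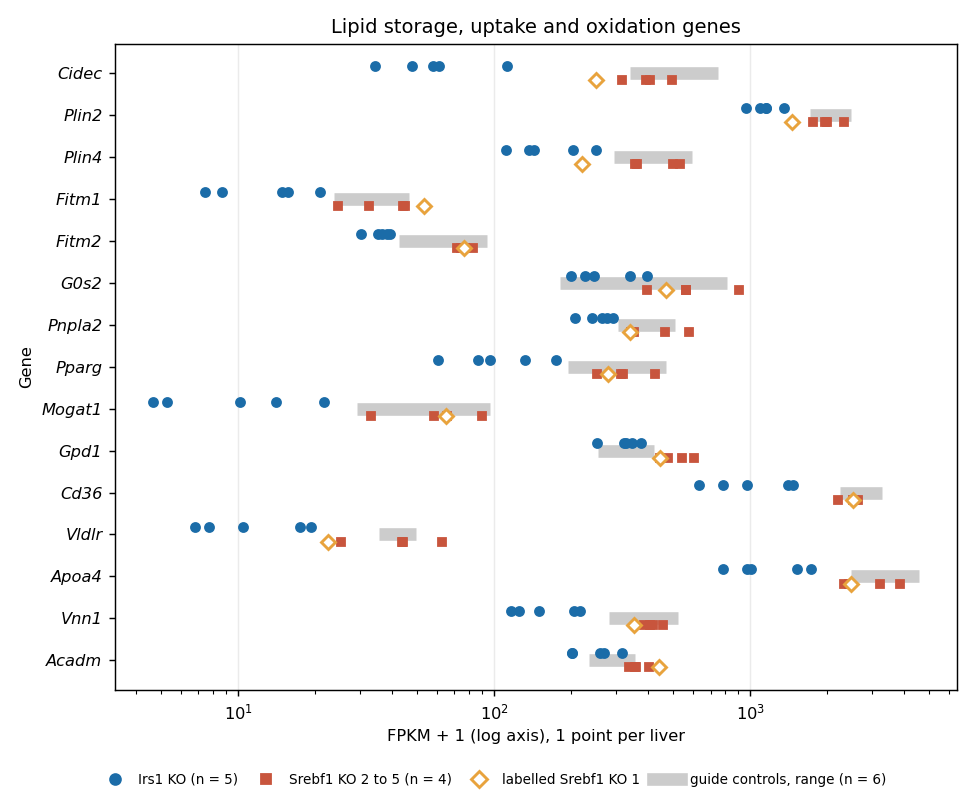
FPKM + 1 (log axis) of lipid storage, uptake and oxidation genes, 1 point per liver, with the range of the 6 guide controls in grey. For Cidec, Cd36, Mogat1 and Vnn1 all 5 Irs1 KO livers lie below all 5 Srebf1 KO livers, and the library labelled Srebf1 KO replicate 1 lies near the other Srebf1 KO livers, unlike in the cholesterol enzymes.

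Many genes with a known sex bias in mouse liver differed, a bias set by the pulsatile or steady pattern of growth hormone through STAT5. Of 26 male-biased genes, 9 were higher in Irs1 KO with 10 livers and 16 with 9, beside 0.921% and 1.47% of all genes, and none were lower. In Irs1 KO 10 of the 26 were above every control in all 5 livers, beside 2.61% of all genes. The median differences were 1.36 and 1.64. With 10 livers the count was 5 without Irs1 KO replicate 1, 2 or 3 or without Srebf1 KO replicate 2, 3, 4 or 5, and with 9 it ran from 12 to 20. With all groups in 1 fit the counts were 5 and 9. The labels give no sex, so sex and guide cannot be told apart from them.

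Hsd3b5, a steroid dehydrogenase of male liver, was at 181, 208, 229, 141 and 80.2 FPKM in Irs1 KO and at 1.92, 2.76, 1.45 and 6.33 FPKM in Srebf1 KO replicates 2 to 5. The library labelled Srebf1 KO replicate 1 held 77.3 FPKM, just under the lowest Irs1 KO liver, and the controls held 0 to 3.75 FPKM. The difference was 4.53 ± 0.79 (adjusted p = 0.012) with 10 livers and 5.40 ± 0.36 (adjusted p = 6.0e-05) with 9. C8b, a terminal complement component, was at 836, 1267, 1373, 860.2 and 893 FPKM in Irs1 KO and at 212 to 279 FPKM in Srebf1 KO replicates 2 to 5, with 464 FPKM in the library labelled replicate 1 (1.90 ± 0.21, adjusted p = 0.0018; 2.09 ± 0.16, adjusted p = 9.6e-05). The EGF receptor gene, Egfr, was at 571 to 1368 FPKM against 172 to 199.6 FPKM, and at 526 FPKM in that library (1.89 ± 0.32, adjusted p = 0.01; 2.20 ± 0.22, adjusted p = 0.00055). These 3 genes separated the groups in both fits and in every leave-out.

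Of 7 tested major urinary protein genes on this list, pheromone carriers of male urine, 4 were higher with 10 livers and 6 with 9, while Mup20 passed in neither. Their near-identical copies share reads, so single members are uncertain. With all groups in 1 fit Mup1, Mup7, Mup11 and Mup12 lost the 10-liver call, with adjusted p from 0.0822 for Mup11 to 0.319 for Mup1. Mup7 was at 5314, 10705, 11897, 2538 and 1105 FPKM in Irs1 KO and at 363, 469.8, 61.6 and 442 FPKM in Srebf1 KO replicates 2 to 5, with 2038 FPKM in the library labelled replicate 1. Irs1 KO replicates 2 and 3 were the highest and replicate 5 the lowest of their group, and replicates 4 and 5 lay on either side of the library labelled Srebf1 KO replicate 1. The call with 10 livers (3.52 ± 0.84, adjusted p = 0.045) held among leave-outs only without Irs1 KO replicate 5 or the library labelled Srebf1 KO replicate 1 (up to 0.108 in the others), and without that library it was 4.11 ± 0.76 (adjusted p = 0.013). Slco1a1, an organic anion carrier of male liver, was at 451 to 674 FPKM against 54.0 to 198 FPKM, with 508 FPKM in that library, inside the Irs1 KO range. It passed with 10 livers (2.14, adjusted p = 0.044) and among leave-outs only without that library (2.63, adjusted p = 0.002; up to 0.0988 in the others).

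Of 20 female-biased genes 6 were lower and 1 was higher in Irs1 KO in both fits, with medians of -1.14 and -0.99. Over all genes 2.15% and 2.70% were lower and 0.921% and 1.47% higher with 10 and 9 livers. Cyp2b13, a steroid hydroxylase of female liver, was listed at 0, 0, 0, 2.04 and 3.41 FPKM in Irs1 KO and was at 52.0, 134, 142 and 21.8 FPKM in Srebf1 KO replicates 2 to 5, with 6.05 FPKM in the library labelled replicate 1 (-4.71 ± 0.79, adjusted p = 0.01; -5.37 ± 0.64, adjusted p = 0.0014). Cyp2a4 was at 0.64 to 5.60 FPKM against 16.9 to 41.3 FPKM, with 7.59 FPKM in that library (-2.70 ± 0.49, adjusted p = 0.014; -3.08 ± 0.42, adjusted p = 0.0025). Cyp2a22 and the organic anion transporter gene Slc22a27 were lower by like amounts (-3.32 and -3.31 with 10 livers, adjusted p = 0.0058 and 0.013; -3.40 and -3.57 with 9, adjusted p = 0.0062 and 0.0087). Cyp2c37 was the member that went the other way, at 251 to 493 FPKM against 105 to 194 FPKM (1.18 ± 0.22, adjusted p = 0.017; 1.31 ± 0.22, adjusted p = 0.0078). Cyp2 and Slc22 genes lie in clusters of close copies that can share reads.

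Of 15 genes of the growth hormone axis, 1 was higher with 10 livers and 2 with 9, beside 0.921% and 1.47% of all genes. Igfbp2, a binding protein for insulin-like growth factors, was at 456, 474, 344, 403 and 503 FPKM in Irs1 KO and at 94.7, 98.9, 127 and 114 FPKM in Srebf1 KO replicates 2 to 5. The library labelled replicate 1 lay between, at 321 FPKM, and the groups did not overlap (1.68 ± 0.28, adjusted p = 0.01; 1.99 ± 0.13, adjusted p = 6.0e-05). Igf1, the growth factor that growth hormone induces, passed only with 9 livers (0.45 ± 0.11, adjusted p = 0.045) and there only in the leave-out of Srebf1 KO replicate 2 (up to 0.121 in the others).

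**Figure D4:**
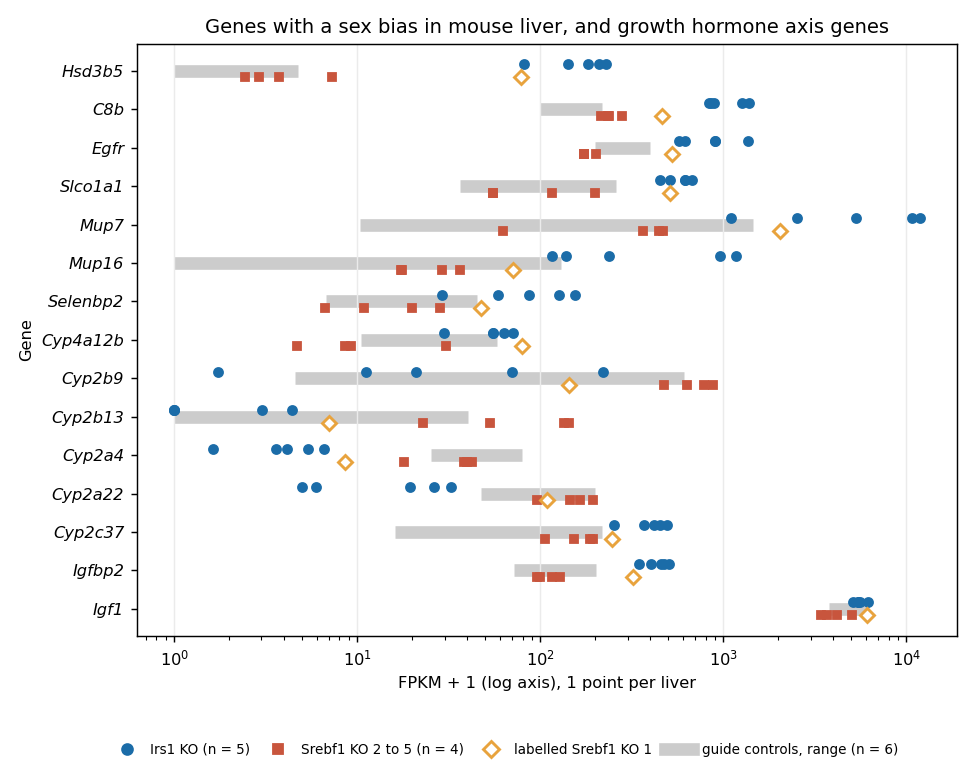
FPKM + 1 (log axis) of genes with a sex bias in mouse liver and of 2 growth hormone axis genes, Igfbp2 and Igf1, 1 point per liver, with the range of the 6 guide controls in grey. Hsd3b5, C8b and Egfr are higher in all Irs1 KO livers than in Srebf1 KO replicates 2 to 5, Cyp2b13 and Cyp2a4 are lower, and the library labelled Srebf1 KO replicate 1 lies between or beside the Irs1 KO livers.

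Periportal, amino acid catabolism, hepatocyte marker and complement and coagulation genes were higher in Irs1 KO where they differed. Of 24 periportal genes 4 were higher with 10 livers and 7 with 9, of 30 amino acid catabolism genes 3 and 9, of 25 hepatocyte markers 4 and 7, and of 31 complement and coagulation genes 5 and 6. Over all genes 0.921% and 1.47% were higher. None of these lists had a lower call in either fit, and their medians with 9 livers were 0.46, 0.31, 0.08 and 0.20. The lists share members: Hpd, Hal, Tat and Gls2 counted as periportal and as amino acid catabolism genes. C8b counted among the complement and the male-biased genes. In the 10-liver fit the periportal count was 1 or 2 without Irs1 KO replicate 1, 2, 3 or 4 or Srebf1 KO replicate 2, 3 or 5, the hepatocyte marker count was 1 or 2 without any 1 liver but the library labelled Srebf1 KO replicate 1, and the complement and coagulation count was 2 or 3 without any 1 liver but that library. With 9 livers the complement and coagulation count was 3 without Srebf1 KO replicate 3 or 4 and 10 under median scaling. With all groups in 1 fit the 10-liver and 9-liver counts were 1 and 1 periportal, 0 and 1 amino acid catabolism, 3 and 3 hepatocyte marker and 4 and 2 complement and coagulation genes. The library labelled Srebf1 KO replicate 1 had median positions of 0.21, -0.19, 0.11 and 0.49 over the called genes of these lists, in that order.

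Hpd, a dioxygenase of tyrosine breakdown, was at 6246, 6706, 4941, 6477 and 6366 FPKM in Irs1 KO and at 4295, 3646, 3996, 3414 and 2745 FPKM in the Srebf1 KO livers, without overlap (0.77 ± 0.12, adjusted p = 0.0089; 0.84 ± 0.12, adjusted p = 0.004). Cps1, the entry enzyme of the urea cycle, was at 4837 to 6486 FPKM against 2514 to 3279 FPKM in Srebf1 KO replicates 2 to 5, with 5035 FPKM in the library labelled replicate 1. With 10 livers its call (0.79, adjusted p = 0.031) held among leave-outs only without Irs1 KO replicate 5 or that library (up to 0.0835 in the others), and without that library it was 0.96 ± 0.11 (adjusted p = 0.00082). Cbs, the transsulfuration enzyme, was at 1917 to 2165 FPKM against 1361 to 1652 FPKM in all Srebf1 KO livers (0.49 ± 0.08, adjusted p = 0.0076; 0.52 ± 0.08, adjusted p = 0.0049). Pericentral genes went both ways: Cyp1a2, a drug-oxidizing cytochrome, was at 471 to 662 FPKM against 155 to 392 FPKM (1.18 ± 0.20, adjusted p = 0.012; 1.35 ± 0.17, adjusted p = 0.0016). Aldh1a1, a retinal dehydrogenase, was at 2066 to 3051 FPKM against 4134 to 5722 FPKM (-0.95 ± 0.13, adjusted p = 0.0044; -1.02 ± 0.13, adjusted p = 0.0016).

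Among 25 bile acid genes 3 were higher and 2 lower with 10 livers, and 5 were higher and 3 lower with 9. Over all genes 0.921% and 1.47% were higher and 2.15% and 2.70% lower. In the 10-liver fit the higher count was 0 without Irs1 KO replicate 2 or Srebf1 KO replicate 2, 3 or 4 and 1 without Irs1 KO replicate 3 or 5 or Srebf1 KO replicate 5, and with 9 it was 3 without Irs1 KO replicate 2 or Srebf1 KO replicate 3 or 4 and with all groups in 1 fit. Slc10a1, the sodium-dependent importer of bile acids, was at 1592 to 2046 FPKM in Irs1 KO, at 689 to 970.0 FPKM in Srebf1 KO replicates 2 to 5 and at 1668 FPKM in the library labelled replicate 1 (without that library 1.13 ± 0.11, adjusted p = 0.00056; with it 0.93, adjusted p = 0.026, kept only in the leave-outs of Irs1 KO replicate 1 or 4 or that library, up to 0.0677). Abcc4, a basolateral exporter, went the other way, at 6.25 to 13.2 FPKM against 20.2 to 38.4 FPKM in all Srebf1 KO livers (-1.47 ± 0.24, adjusted p = 0.0089; -1.60 ± 0.23, adjusted p = 0.004).

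Detoxification genes that differed were lower in Irs1 KO with 1 exception in each fit. Of 32 xenobiotic metabolism genes 10 were lower and 1 was higher in both fits, and of 22 NRF2 target and glutathione genes 7 and 8 were lower and none higher. Over all genes 2.15% and 2.70% were lower and 0.921% and 1.47% higher with 10 and 9 livers. Gsta1, Gsta2 and Gstm3 counted in both lists. The xenobiotic count was 6 with 10 livers without Irs1 KO replicate 1 or Srebf1 KO replicate 3 or 5, 6 with 9 without Srebf1 KO replicate 4 or 5, and 6 with 10 when all groups were in 1 fit. The NRF2 count with 10 livers was 4 without Irs1 KO replicate 1 or 3 or Srebf1 KO replicate 3, 3 without Srebf1 KO replicate 5, 4 under median scaling and 5 under quantile normalization; with 9 it was 5 under median scaling. Gpx4, the lipid hydroperoxide reductase, was at 200.03, 197, 221, 195 and 214 FPKM in Irs1 KO and at 326, 356, 397, 351 and 395 FPKM in the Srebf1 KO livers, a narrow spread in both (-0.82 ± 0.08, adjusted p = 0.0014; -0.86 ± 0.08, adjusted p = 0.0004). Gstm3, a glutathione transferase, was at 15.8 to 44.0 FPKM against 82.3 to 179 FPKM (-2.09 ± 0.30, adjusted p = 0.0056; -2.25 ± 0.30, adjusted p = 0.0025). Controls ranged from 373 to 465 FPKM for Gpx4 and from 174 to 354 FPKM for Gstm3, above every Irs1 KO liver.

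Some matrix and macrophage genes were lower in Irs1 KO and none of these lists had a higher call. In whole liver fewer cells of a type and less RNA per cell cannot be told apart. Of 29 stellate cell and fibroblast markers 6 were lower with 10 livers and 9 with 9, beside 2.15% and 2.70% of all genes, and none were higher. In the 10-liver fit the lower count was 1 without Irs1 KO replicate 2 or Srebf1 KO replicate 2 or 5, 2 without Srebf1 KO replicate 3 or 4 and 3 without Irs1 KO replicate 1. With all groups in 1 fit it was 1 with 10 livers and 2 with 9. Postn, the matrix protein periostin, was at 62.3, 71.0, 97.4, 91.7 and 85.1 FPKM in Irs1 KO, at 210.1, 213, 201 and 163 FPKM in Srebf1 KO replicates 2 to 5 and at 113 FPKM in the library labelled replicate 1 (-1.12 ± 0.18, adjusted p = 0.0097; -1.27 ± 0.15, adjusted p = 0.001). Col1a1, the main fibrillar collagen gene, was at 2.18 to 9.68 FPKM against 15.2 to 33.7 FPKM and 8.78 FPKM in that library (-2.03 ± 0.37 without it, adjusted p = 0.013; with it -1.79, adjusted p = 0.03, kept only in the leave-outs of Irs1 KO replicate 3 or 4 or that library, up to 0.0765). The summed level of 7 stellate cell markers, most of it Dcn, overlapped, at 582 to 686 FPKM in Irs1 KO, 499 to 845 FPKM in Srebf1 KO and 768 to 1681 FPKM in controls. In Irs1 KO 18 of the 29 list genes were below every control in all 5 livers, beside 5.91% of all genes. The part of stellate cell number in these values was not tested.

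Of 17 lipid-associated macrophage markers, genes of the macrophages that gather in fatty liver, 4 were lower in both fits, and 2 in each with all groups in 1 fit. Over all genes 2.15% were lower with 10 livers and 2.70% with 9. With 10 livers the count was 2 in every leave-out but those of Irs1 KO replicate 4 and the library labelled Srebf1 KO replicate 1. Lgals1, a galectin, was at 4.04 to 11.9 FPKM against 20.7 to 58.9 FPKM in all Srebf1 KO livers (-1.97 ± 0.32, adjusted p = 0.0091; -2.17 ± 0.31, adjusted p = 0.0033). Gpnmb, a glycoprotein of these cells, was near the floor in Irs1 KO, 0.0972 to 1.39 FPKM, and at 4.59 to 10.8 FPKM in Srebf1 KO replicates 2 to 5 (-2.26 ± 0.37 with 9 livers, adjusted p = 0.0071; with 10 livers -1.92, adjusted p = 0.036, kept only in the leave-outs of Irs1 KO replicate 4 or the library labelled Srebf1 KO replicate 1, up to 0.0881). Kupffer cell levels overlapped, with 5 resident markers summing to 387 to 684 FPKM in Irs1 KO and 333 to 581 FPKM in Srebf1 KO. Of 13 antigen presentation genes 2 were lower with 10 livers and 4 with 9, beside 2.15% and 2.70% of all genes. The list count was 2 with 9 livers without Irs1 KO replicate 3 or Srebf1 KO replicate 2, 3, 4 or 5 and under median scaling, and 0 in each fit with all groups in 1 fit. The master regulator of this class, Ciita, was at 18.5 to 24.9 FPKM against 29.7 to 51.8 FPKM (-0.87 ± 0.17, adjusted p = 0.017; -0.96 ± 0.16, adjusted p = 0.0084). Hepatocyte identity was plain in all 10 livers, with Alb at 37812 to 70584 FPKM.

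The remaining lists had few calls or none, some of them still above the share of all genes. Of 25 insulin receptor signalling genes 1 passed in each fit, lower in Irs1 KO. Of 22 p53 target genes 2 were lower with 10 livers and 3 with 9. These counts ran from 1 to 3 and from 0 to 4 when single livers were left out. Of 22 glycolysis and ChREBP target genes 1 was lower with 10 livers, and with 9 livers 2 were lower and 2 higher. The lower counts ran from 0 to 2 and from 1 to 3 in the leave-outs. Over all genes 2.15% and 2.70% were lower and 0.921% and 1.47% higher with 10 and 9 livers. Of 19 gluconeogenesis and FOXO1 target genes 1 was lower in both fits, Pcx, pyruvate carboxylase (-0.47 ± 0.08, adjusted p = 0.011; -0.51 ± 0.08, adjusted p = 0.0055). With 9 livers 1 was also higher, Ppargc1a, a coactivator of gluconeogenic and mitochondrial genes (0.75 ± 0.18, adjusted p = 0.038), which lost the call in every leave-out but those of Irs1 KO replicates 2 and 4, and also with all groups in 1 fit. No circadian clock, iron handling, endothelial or cell cycle gene passed in either limma fit. At an unadjusted p under 0.05 there were, with 10 and 9 livers, 0 and 1 of 20 circadian, 8 and 8 of 20 iron handling, 2 and 5 of 23 endothelial and 12 and 10 of 26 cell cycle genes, beside 17.4% and 18.5% of all genes. The 26 cell cycle genes had medians of -0.55 and -0.59 all the same, and the 29 interferon-stimulated genes, 3 of them lower in both fits, had -0.51 and -0.49. With 10 livers that interferon count was 0 without Irs1 KO replicate 2 or Srebf1 KO replicate 2 or 5 and 1 without Irs1 KO replicate 1, 3 or 4 or Srebf1 KO replicate 3 and with all groups in 1 fit. Putting all groups in 1 fit also ended the calls of Slc10a1, Cyp2c37, Hpd, Cbs, Gpnmb, Ciita and Col1a1 with 10 and with 9 livers, those of Slco1a1 and Cyp1a2 with 10, and those of Scd2, Mlxipl and Igf1 with 9.

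**Figure D5:**
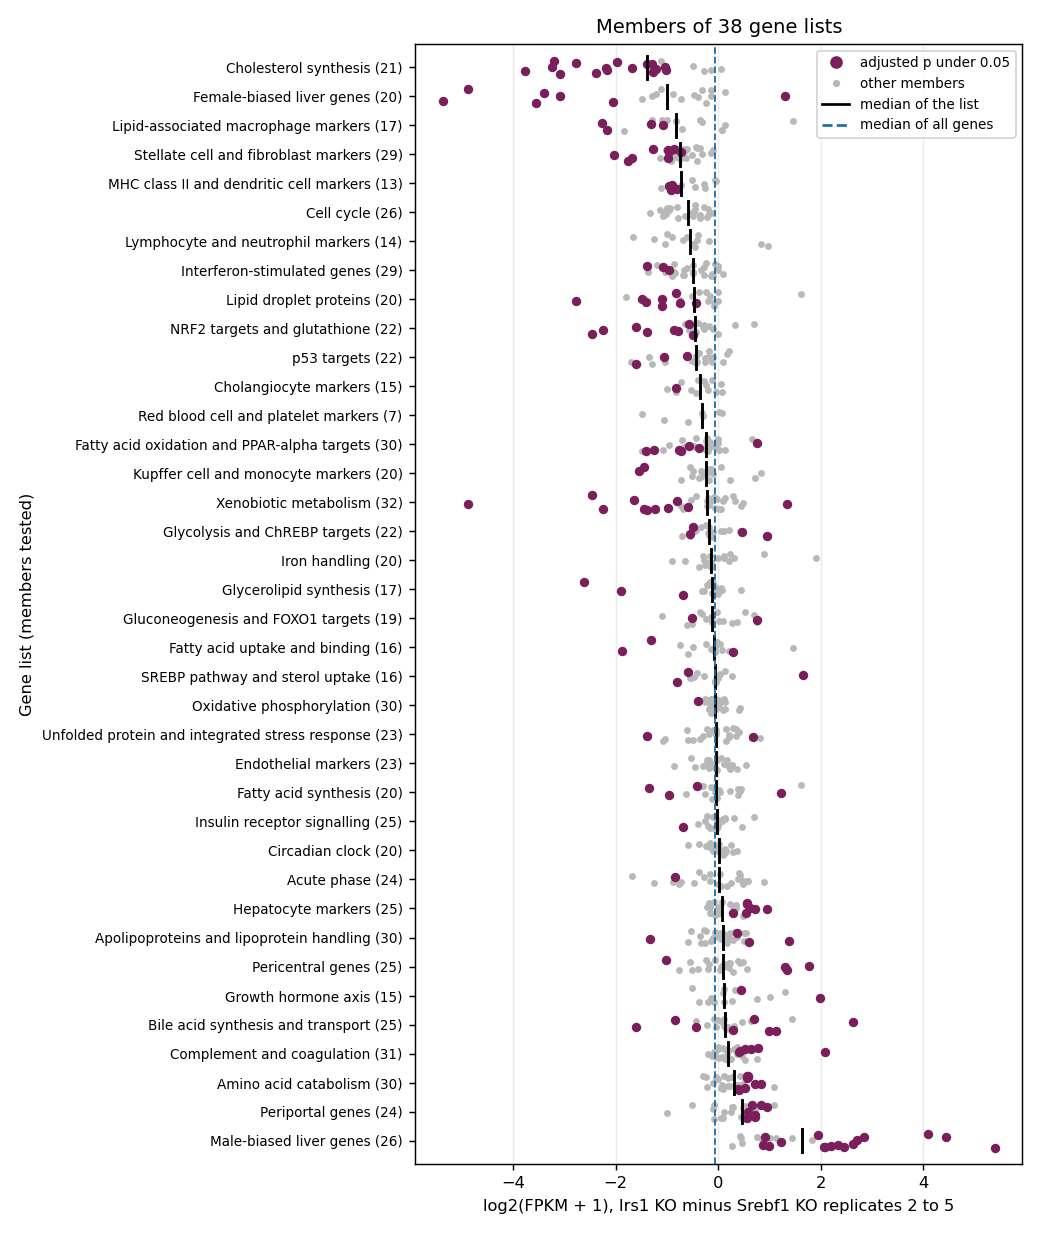
Difference in log2(FPKM + 1), Irs1 KO minus Srebf1 KO replicates 2 to 5, for the tested members of 38 gene lists, ordered by median (black bars); dark points passed an adjusted p of 0.05 and the dashed line is the median over all genes, -0.07. Cholesterol synthesis has the lowest median, -1.39, and male-biased genes the highest, 1.64.

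Some of the largest differences lay outside these groups. Cfd, complement factor D, a protease made by fat cells, was listed at 0, 1.75, 4.74, 29.4 and 0 FPKM in Irs1 KO and was at 105, 149, 138, 145 and 51.8 FPKM in the Srebf1 KO livers (-5.02 ± 0.80, adjusted p = 0.0082; -5.03 ± 0.88, adjusted p = 0.01). The controls held 0 to 21.2 FPKM, below every Srebf1 KO liver. The fat cell genes Adipoq, Lep and Plin1 together summed to 0 FPKM in all Irs1 KO livers and to at most 1.13 FPKM in any Srebf1 KO liver. Adgrf1, an adhesion receptor, was at 10.8, 11, 10.4, 18.5 and 7.85 FPKM in Irs1 KO and at 1.38, 0, 0, 0 and 1.07 FPKM in the Srebf1 KO livers (3.16 ± 0.35, adjusted p = 0.0018; 3.36 ± 0.34, adjusted p = 0.00056). Nfasc, a cell adhesion protein known from axons, was at 2.04 to 12.8 FPKM against at most 0.767 FPKM (2.60 ± 0.41, adjusted p = 0.0076; 2.75 ± 0.43, adjusted p = 0.0057). Themis, a signalling protein of T cell development, singled out after its values were seen, was at 12.1 to 23.9 FPKM against 87.4 to 161 FPKM in all Srebf1 KO livers (-2.65 ± 0.21, adjusted p = 0.0004; -2.67 ± 0.23, adjusted p = 0.00023). The T cell marker Cd3e overlapped between the groups, at 1.49 to 27.7 FPKM in Irs1 KO and 10.8 to 29.5 FPKM in Srebf1 KO.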

How the data were processed

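RNA of whole mouse liver was sequenced as stranded total RNA, and 10 of 34 libraries entered the comparison. The authors deposited 1 table of FPKM per gene symbol and library. Reads were counted with featureCounts 1.6.4, per the submitters' processing notes. The builds mm10 and GRCh38 are both named there without a role, while aligner, annotation and strand setting were not given in the sources used here. Most symbols appear to be sums over transcripts, overlapping or near-identical genes can share reads, and FPKM gives no count from which an interval could be had. From the spacing of low FPKM values, depth was inferred as 2140000 to 2840000 reads per library (median 2635000). This is an estimate and no count test was run.

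Genes with at least 1 FPKM in 5 or more of the 10 livers (16388 of 35976 symbols) were put on the scale of log2(FPKM + 1), with a pseudocount of 1. They were fitted with limma 3.58.1 in R 4.3.3 with an intensity trend. P-values were adjusted by Benjamini-Hochberg over all 16388 genes at 0.05. The fit was run with all 10 livers and with 9, the latter leaving out Srebf1 KO replicate 1. The procedure was tested on simulated data. Named genes were the targeted genes, the 10 highest and 10 lowest differences called with 10 livers, the 6 highest and 6 lowest called only with 9, and up to 4 called members of each list by smallest adjusted p, 117 in all. A further 23 were chosen after their values were seen, among them further cholesterol enzymes, Pparg, Fasn, Scd1, Col1a1 and Themis. The 38 lists held 833 symbols, of which 777 were tested. A few genes that these rules name are not reported here. Members and lists were chosen with earlier results of these data known. Lists are given by counts and medians beside all genes. Alternatives covered the pseudocount, the filter, scaling, the trend, array weights, a fit of all groups, the replicate number as a block and leaving out each liver.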

Additional observations from a re-analysis of the deposited data

Results flagged for a closer look

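Of 280 groups of livers checked, 1 per named gene and guide, 20 had a sample that stood apart from the others, and chance alone gives about 1 in 20. Of these, 9 were in the library labelled Srebf1 KO replicate 1, 4 in Irs1 KO replicate 3, 3 in Irs1 KO replicate 5 and 1 each in Irs1 KO replicate 2 and Srebf1 KO replicates 3, 4 and 5. Some named genes were picked because they passed only with 9 livers, which favours genes where Srebf1 KO replicate 1 differed from its group. The chance rate makes no allowance for this choice. The 9 flags of Srebf1 KO replicate 1 are therefore no independent sign that it stood apart.

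The library labelled Srebf1 KO replicate 1 was the highest of its group for Srebf1 at 1908 FPKM (others 499 to 632), Egfr at 526 FPKM (others 172 to 199.6), Igfbp2 at 321 FPKM (others 94.7 to 127), Slc27a5 at 389 FPKM (others 276 to 301) and Nfasc at 0.767 FPKM (others up to 0.0919). It was the lowest for Srebf2 at 41.8 FPKM (others 64.8 to 71.3), Fdft1 at 168 FPKM (others 558 to 829.6) and Fasn at 338 FPKM (others 396 to 405), and Sprr1a was listed at 0 there (others 9.29 to 16.8).

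Irs1 KO replicate 3 was lowest for Mthfd1l at 0.860 FPKM (others 8.74 to 10.9), Hpd at 4941 FPKM (others 6246 to 6706) and Cyp2c54 at 464 FPKM (others 782 to 861), and highest for Lrp1 at 486 FPKM (others 394 to 412). Irs1 KO replicate 5 was highest for Sqle at 7.39 FPKM (others 4.56 to 5.23), Slc27a5 at 382 FPKM (others 344 to 354) and Mogat2 at 1.25 FPKM, which was listed at 0 in the others. Irs1 KO replicate 2 was lowest for Cd74 at 75.6 FPKM (others 103 to 116). Srebf1 KO replicate 4 was lowest for Cd36 at 2202 FPKM (others 2519 to 2637), Srebf1 KO replicate 3 lowest for Btg2 at 28.0 FPKM (others 37.1 to 41.4) and Srebf1 KO replicate 5 highest for Gbp6 at 181.5 FPKM (others 101 to 111).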

How the results depend on the processing

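The count of 503 genes with 10 livers was 306 without the filter on low values, 254 without the intensity trend, 253 with the replicate block, and 223 to 684 when single livers were left out. The count of 684 with 9 livers was 452 with all groups in 1 fit, 436 without the trend, 239 with the replicate block, and 430 to 632 when single livers were left out. Other alternatives kept both counts within 1.5 times, and the cause of these changes was not tested. Replicate numbers did not pair the livers: deviations of same-numbered livers correlated at -0.03 to 0.06. No named gene that passed in a fit changed direction there under an alternative run, while Irs1, Fasn and Ggps1, which passed in neither, did. Of the 96 named genes called with 10 livers, 54 kept the call in every leave-out, and of the 132 called with 9 livers, 90. With 10 livers 37 of them lost the call with all groups in 1 fit and 40 without the trend, and with 9 livers 50 and 32. Low genes are limited by depth.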
